A study of Mus musculus with 24 samples.

Results

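The 10 genes described here code for transcription factors of the naive pluripotency network of mouse embryonic stem cells: Nanog, Klf2, Klf4, Klf5, Esrrb, Tfcp2l1, Tbx3, Zfp42, Prdm14 and Nr0b1. They were chosen by gene symbol, and all 10 were listed among the 19780 genes measured in control cells and among the 19979 measured in paused cells. The cells are of the E14 line, grown on gelatin in serum with leukaemia inhibitory factor (LIF), the cytokine that keeps mouse embryonic stem cells undifferentiated. The genotypes were wild type and 2 lines labelled as Smad2 knockouts, Smad2_KO1 and Smad2_KO2; each genotype was measured in control medium and after 12 h with 200 nM INK128, which inhibits the kinase mTOR and puts the cells into a paused state. Each of the 6 groups holds 4 libraries of poly(A) RNA, 24 in all. The labels do not say whether the libraries of a group came from separate cultures, how the knockout lines were made or whether each is a single clone, so the p-values measure the spread between these libraries only.

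Naive pluripotency is the state of the early epiblast before implantation, and in culture it rests on a set of transcription factors that activate each other's genes and their own. LIF acts through STAT3 on Klf4 and Tfcp2l1, the loss of repression by TCF7L1 at the end of Wnt signalling frees Esrrb, Nanog and Klf2, and PI3K signalling supports Tbx3. Smad2 is the effector of Nodal and activin receptors, and in embryonic stem cells its best known direct targets are the feedback inhibitors Lefty1 and Lefty2. The series title names Nodal and Smad2 signalling as sustaining the paused state, so the question asked here was how Smad2 loss moved the naive factors under either condition.

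The sequence upstream of 3 of the factors is shown as an example of 3 of the outcomes below: Nanog and Klf4 rose in both conditions, Klf4 to a different extent in each, and Esrrb passed the test in neither. Of the factors called in 1 condition only, Nr0b1 has a window that is not printed, and no window was matched for Prdm14. The windows are the 250 bases before the annotated RefSeq start, from GRCm38.p6, written 5′ to 3′ on the gene's strand. The Nanog window is chr6:122707239-122707488 on the plus strand, that of Klf4 is chr4:55532476-55532725 on the minus strand, and that of Esrrb is chr12:86360867-86361116 on the plus strand; for Nanog and Esrrb the first of 2 annotated starts was taken. Capitals mark the letters GTCTG or CAGAC of a SMAD half-site and TTCNNNGAA of a STAT site, searched on both strands; matches of different motifs do not overlap in these windows.
Nanog: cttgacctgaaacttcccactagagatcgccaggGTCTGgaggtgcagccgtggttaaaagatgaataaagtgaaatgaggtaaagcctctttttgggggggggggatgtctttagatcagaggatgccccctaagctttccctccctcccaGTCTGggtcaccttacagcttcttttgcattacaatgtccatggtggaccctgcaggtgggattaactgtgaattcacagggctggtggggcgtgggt
Klf4: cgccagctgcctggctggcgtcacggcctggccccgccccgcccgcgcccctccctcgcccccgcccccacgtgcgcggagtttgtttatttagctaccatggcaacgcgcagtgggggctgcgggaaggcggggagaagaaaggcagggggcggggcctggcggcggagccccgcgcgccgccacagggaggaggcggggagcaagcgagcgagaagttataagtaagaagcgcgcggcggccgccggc
Esrrb: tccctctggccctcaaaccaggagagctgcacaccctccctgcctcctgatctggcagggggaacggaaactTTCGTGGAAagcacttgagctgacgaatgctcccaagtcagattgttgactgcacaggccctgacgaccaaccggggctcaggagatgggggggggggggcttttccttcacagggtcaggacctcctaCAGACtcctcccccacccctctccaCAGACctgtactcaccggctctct
The Nanog window holds the SMAD letters at 2 places. Esrrb has the SMAD letters at 2 places and the STAT letters once, and Klf4 has none of these letters in this window. Promoter windows were matched for 7 of the 10 factors (9 windows), and not for Tbx3, Klf5 and Prdm14. The 2 windows of Nanog overlap. Counted by window, the SMAD letters were in the 250 bases of 3 of the 9 (both Nanog windows and the first of Esrrb), against 42.2% of the 32851 mouse promoter windows. KLF letters (GGGTG or CACCC) were in 6 of the 9, those of Klf2, Zfp42 and Nr0b1, both of Esrrb and the second of Nanog, which is not printed, against 52.0% of all windows. TCF letters (CTTTG or CAAAG) were in 2, those of Zfp42 and Nr0b1, against 48.6%, and STAT letters in 1, the first of Esrrb, against 7.02%. These are matches of letters and say nothing of binding.

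The data are 2 results tables of the authors, one per condition, which give for each gene a log2 change with its standard error (SE), a p-value and the mean of its normalized counts; values of single libraries were not analysed here, so no value per library, depth or leave-one-out check can be given, and the 2 knockout lines cannot be separated. The mean counts sum to 46050692 in control cells and 44298976 in paused cells, and levels below are in ppm, the share of that sum scaled to 1000000. The tables do not name the numerator; the sign was taken so that Smad2, and with it the feedback targets Lefty1 and Lefty2, are lower in the knockout. All directions below depend on that reading, and those of these 3 genes are no finding. The targeted gene, Smad2, fell by 0.35 (SE 0.07, adjusted p 6.50e-06) in control cells and by 0.63 (SE 0.06, adjusted p 4.10e-26) in paused ones, per the authors' deposited tables. That leaves 78.6% and 64.6% of the wild-type level; the part of the gene that was altered is not given in the sources used here, so this mRNA value does not measure the loss of protein. A gene is called when its adjusted p, over all genes of its table, is under 0.05. That share was 41.4% of genes in control cells and 42.6% in paused cells, so a call alone sets no gene apart. Of all calls 47.1% were higher in control and 48.2% in paused cells; with changes centred at the median of genes with at least 5 ppm these shares were 60.1% and 60.9%, and with equal summed counts 60.5% and 57.6%. The identity of the cells was checked with fixed markers, of which Nanog, an embryonic stem cell marker, is also one of the 10 factors. All 8 embryonic stem cell markers were listed, Pou5f1 highest (1123 and 996 ppm in control and paused cells), with Fut4 the lowest at 1.64 and 1.51, and the 6 primitive endoderm markers summed to 22.0 and 40.4 ppm. Of the 8 stem cell markers 2 (Nanog and Alpl) were called higher and 4 lower in the knockout in control cells. In paused cells the same 2 were called higher and 2 lower. The implied sum went from 4770 to 4371 and from 3766 to 3660 ppm (wild type to knockout). A large part of the control sum is Dppa5a, at 1096 ppm, which was not called. Its values in the authors' deposited tables were -0.39 (SE 0.27, adjusted p 0.252) in control and -0.16 (SE 0.09, adjusted p 0.147) in paused cells.

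In control cells, loss of Smad2 went with higher transcript levels of 4 of the 10 naive factors: Tbx3, Klf4, Prdm14 and Nanog. The rise was 2.01-fold for Tbx3, 1.47-fold for Klf4, 1.31-fold for Prdm14 and 1.25-fold for Nanog. No factor fell, and the other 6 lay between 0.95-fold and 1.06-fold. Over all genes 19.5% were called higher and 21.9% lower. Of the 7010 genes at or above the level of the least abundant factor, Prdm14, 49.9% were called and 16.3% called higher. In paused cells the factors called higher were 3, Tbx3 (1.73-fold), Klf4 (1.19-fold) and Nanog (1.13-fold), and Nr0b1 fell to 76.8% of the wild-type level; 20.5% of all genes were called higher and 22.0% lower. Of the 6207 genes at or above the level of Prdm14 in paused cells 52.4% were called, 19.2% higher and 33.2% lower. With 4 of 10 called in each table, the share of factors called is near that of all genes. The median log2 change of the 10 was 0.09 in control cells and 0.02 in paused cells, against 0.00 over all genes in each. Tested against a change of up to 1.2-fold, Tbx3 and Klf4 remained called in control cells and Tbx3 in paused cells; with a statistic rescaled to unit middle spread Tbx3 alone did, in both. As these are bulk samples, fewer cells expressing a gene and less RNA per cell cannot be told apart.

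**Figure D1:**
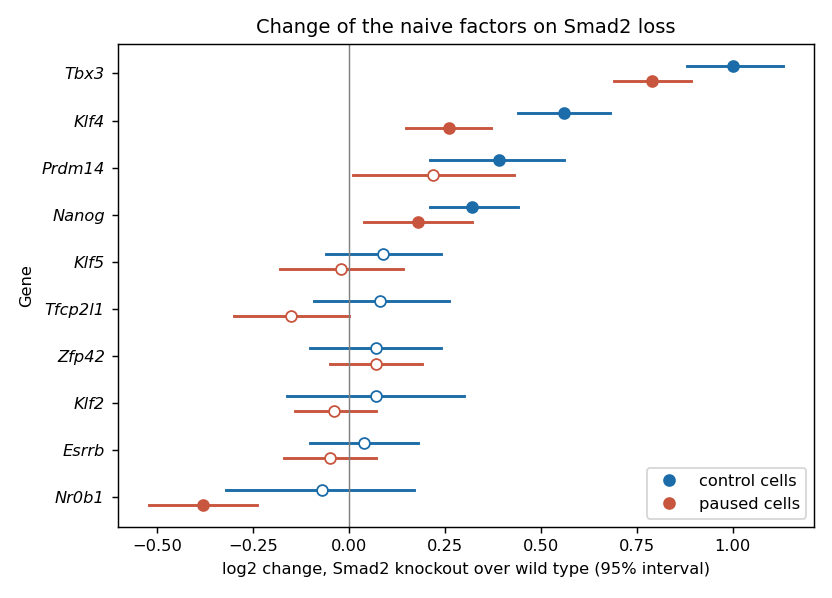
Log2 change of each naive factor, Smad2 knockout over wild type, in control (blue) and paused (red) cells; points are the authors' deposited changes, bars their 95% intervals, filled points have an adjusted p under 0.05. Tbx3 stands highest in both conditions at 1.00 and 0.79, and Nr0b1 lowest at -0.07 and -0.38.

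Tbx3 codes for a T-box factor that keeps self-renewal going and can also promote primitive endoderm fate. The gene lies at chr5:119670669-119684724 (GRCm38, plus strand) and its longest transcript has 7 exons. It had the largest change of the 10 in both conditions. Its log2 change was 1.00 (SE 0.07, adjusted p 8.61e-51) in control cells, per the authors' deposited table, a larger change than that of 97.9% of the 10795 genes with at least 5 ppm. For pausing the authors' deposited table gave 0.79 (SE 0.05, adjusted p 2.54e-52), larger than 96.2% of such genes. The gap to Klf4, the next in order, was 0.44 (95% interval 0.27 to 0.62) in control cells and 0.54 (0.39 to 0.68) in paused cells, if the 2 estimates are independent. Tbx3 was called in both tables under every alternative tried. An antisense transcript, Tbx3os1, overlaps its exons, and it rose as well, by 1.94 (SE 0.53, adjusted p 0.00127) in control and 1.53 (SE 0.36, adjusted p 1.06e-04) in paused cells of the authors' deposited tables. With means of 10.1 and 22.9 normalized counts against 7573 and 13582 for Tbx3, it is the far less abundant of the pair. Whether reads were counted by strand is not given in the sources used here, so reads of the pair cannot be told apart.

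The Kruppel-like factors Klf2, Klf4 and Klf5 bind similar GC-rich sites and can stand in for each other in self-renewal, with Klf4 downstream of LIF and STAT3. Only Klf4 of the 3 was called. Its log2 change was 0.56 (SE 0.06, adjusted p 5.03e-18) in control cells, per the authors' deposited table, from a mean of 8797 normalized counts. For pausing the authors' deposited table gave 0.26 (SE 0.06, adjusted p 3.05e-05), from a mean of 14880. Klf2 had values of 0.07 (SE 0.12) and -0.04 (SE 0.05), and Klf5 of 0.09 (SE 0.08) and -0.02 (SE 0.08), in control and in paused cells, per the authors' deposited tables. The intervals leave room for small changes: Klf2 lay between 89.3% and 123% of the wild-type level in control cells and between 90.5% and 105% in paused cells, and Klf5 between 95.7% and 118% and between 88.2% and 111%. The paused values of Klf2 and Klf5 change sign with the scaling of the table. Klf2 was measured less precisely in control cells, where its standard error exceeded that of 90.7% of genes at 5 ppm or more, against 44.8% in paused cells.

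Nanog codes for the homeodomain factor at the centre of the network, whose level varies from cell to cell and biases cells against differentiation. It rose by 0.32 (SE 0.06, adjusted p 6.39e-07) in control cells, per the authors' deposited table, to 125% of the wild-type level (95% interval 115% to 136%). For pausing the authors' deposited table gave a rise of 0.18 (SE 0.07, adjusted p 0.0358), to 113% (102% to 125%), which was lost at an adjusted p under 0.01. Prdm14 codes for a zinc-finger protein that recruits repressors to FGF signalling and DNA methyltransferase genes. It was the least abundant factor, with mean counts of 1027 (control) and 1327 (paused), per the authors' deposited tables. It rose by 0.39 (SE 0.09, adjusted p 1.46e-04) in control cells, while its paused value of 0.22 (SE 0.11, adjusted p 0.0777) in the authors' deposited table missed the threshold and passed it with either other scaling.

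The other factors with a core role in the network, Esrrb and Tfcp2l1, were not called in either condition. Esrrb codes for an orphan nuclear receptor that can take over from Nanog in self-renewal, and its changes in the authors' deposited tables were 0.04 (SE 0.07) in control and -0.05 (SE 0.06) in paused cells. Its 95% intervals run from 93.3% to 114% and from 88.9% to 105% of the wild-type level. Tfcp2l1 codes for a factor of the grainyhead family downstream of STAT3. Its value was 0.08 (SE 0.09) in control and -0.15 (SE 0.08, adjusted p 0.0931) in paused cells of the authors' deposited tables. Zfp42 codes for REX1, a zinc-finger protein whose gene is a common reporter of the naive state; it was not called either, at 0.07 (SE 0.09) and 0.07 (SE 0.06) in the authors' deposited tables.

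Nr0b1 codes for DAX1, a nuclear receptor without the usual DNA-binding domain that restrains other factors, among them OCT4. It was the only factor called lower. In paused cells it fell by 0.38 (SE 0.07, adjusted p 1.20e-06) in the authors' deposited table, to 76.8% of the wild-type level (95% interval 69.6% to 84.7%). For control cells the authors' deposited table gave -0.07 (SE 0.13, adjusted p 0.682), with an interval from 80.1% to 113%, and a standard error above that of 92.8% of genes at 5 ppm or more. The change itself was not shown to differ between conditions, at -0.31 (SE 0.15, adjusted p 0.330).

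The order of the changes is only partly resolved. In control cells Tbx3 stood above Klf4 and Nanog stood above Klf5 by 0.24 (95% interval 0.04 to 0.43), while the differences between the other 7 pairs of neighbours had intervals that include 0. In paused cells the resolved steps were Tbx3 above Klf4 and Tfcp2l1 above Nr0b1, by 0.23 (0.02 to 0.43). These intervals take the estimates as independent, are not adjusted for the number of pairs, and compare neighbours ordered by the same values. The steps of Nanog above Klf5 and of Tfcp2l1 above Nr0b1 only just exclude 0 and are a description.

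Whether Smad2 loss acted differently in paused cells was tested as the paused change minus the control change. Klf4 passed: its change was smaller in paused cells by 0.30 on the log2 scale (-0.30, SE 0.08, adjusted p 0.0264), with a 95% interval from -0.47 to -0.14. Over the 19134 genes that both tables list, 1.44% were called, 0.721% toward a lower and 0.716% toward a higher value in paused cells. None of the other 9 factors passed; at an unadjusted p under 0.05 there were 4 with Klf4 included, namely Tbx3 (-0.21, SE 0.08, adjusted p 0.195), Nr0b1 and Tfcp2l1 (-0.24, SE 0.12, adjusted p 0.368). That unadjusted threshold was passed by 12.9% of all genes and by 17.0% of those with at least 5 ppm. The difference of Nanog was -0.15 (SE 0.09) and that of Prdm14 -0.16 (SE 0.14). Klf2 and Klf5 each had -0.11, Esrrb -0.09 and Zfp42 0.00. The value was thus negative for 9 of the 10 factors, with a median of -0.16, where 48.7% of all genes were negative and the median of all genes was 0.01. Factors are not replicates, so this is a description. The call of Klf4 was lost at an adjusted p under 0.01, when tested against a difference of at most 1.2-fold, and with a statistic rescaled to unit middle spread.

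**Figure D2:**
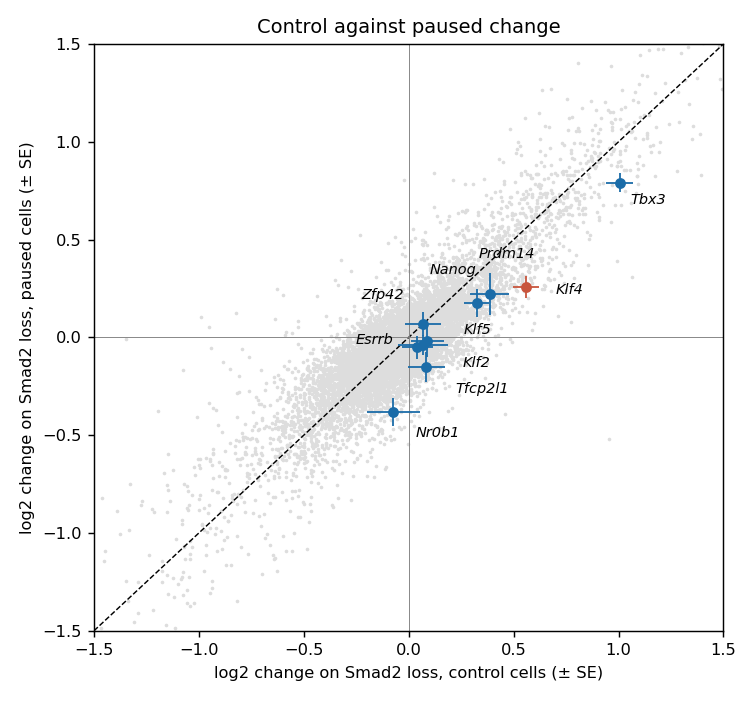
Log2 change on Smad2 loss in paused cells against that in control cells, with standard errors, for the naive factors (blue, and red for Klf4, the one whose difference passed) and for the other genes with at least 5 ppm (grey); 82 of 10958 genes lie outside the axes. The dashed line marks equal changes, and 9 of the 10 factors lie under it.

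The mean count and the change together give a level for each genotype, if 4 wild-type and 8 knockout libraries stand behind each mean. These implied levels are in ppm of the summed mean counts of a table, have no error of their own, and are set across tables that the authors normalized separately, so no test was made between conditions. In wild-type cells Tbx3 stood at 98.4 ppm in control and 206 in paused cells, a ratio of 2.09. In knockout cells it stood at 197 and 357. The knockout level in control cells, 197, thus stood beside a wild-type level of 206 in paused cells. Klf4 had 145 and 297 in wild-type cells, a ratio of 2.05, and 214 and 355 in knockout cells, a ratio of 1.66. That smaller ratio restates the difference tested above.

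Esrrb and Tfcp2l1, not called on Smad2 loss, were higher in paused wild-type cells by ratios of 1.84 and 1.85, from 400 to 736 and from 276 to 511 ppm. Klf5 (1.47), Prdm14 (1.46) and Klf2 (1.24) were higher by less. Nanog was lower, at 392 ppm in paused against 558 in control wild-type cells, a ratio of 0.70, and at 443 against 699 in knockout cells. Zfp42 had a ratio of 0.90 in both genotypes, and Nr0b1 of 1.08 in wild-type and 0.87 in knockout cells. Over 10958 genes with at least 5 ppm the median wild-type ratio was 1.04, with quartiles of 0.82 and 1.32. Tbx3 and Klf4 stood at percentiles 95.7 and 95.2 of these genes, Tfcp2l1 and Esrrb at 93.1 and 93.0, and Nanog at 14.5. With 4 knockout libraries assumed instead, the wild-type ratios were 2.05 for Tbx3, 1.98 for Klf4 and 0.69 for Nanog.

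**Figure D3:**
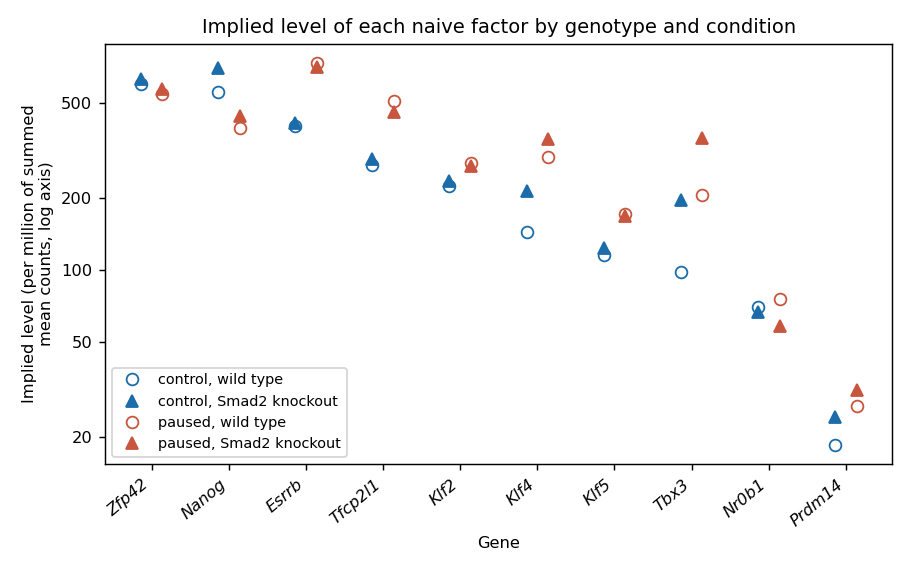
Implied level of each naive factor in ppm of summed mean counts (log axis) in wild-type (open circles) and Smad2 knockout cells (filled triangles), in control (blue) and paused (red) cells. Esrrb, Tfcp2l1, Klf4 and Tbx3 are higher in paused cells of both genotypes and Nanog is lower.

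**Figure D4:**
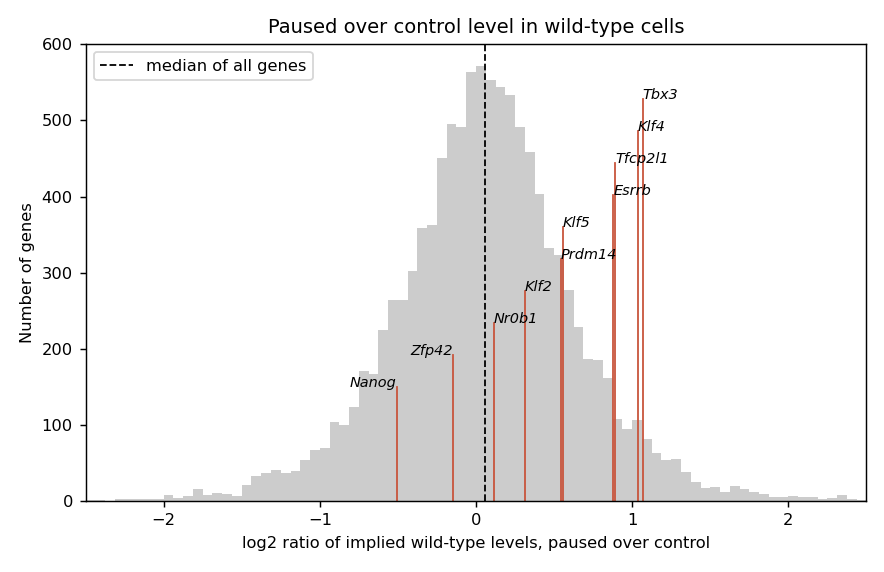
Number of genes (grey, genes with at least 5 ppm) by the log2 ratio of implied wild-type levels, paused over control, with a red line for each naive factor and a dashed line at the median; 16 of 10958 genes lie outside the axis. Line heights only separate the labels; Tbx3, Klf4, Tfcp2l1 and Esrrb lie in the upper tail, at ratios of 1.84 to 2.09.

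Compared per length, as mean count per base of the longest GENCODE M21 transcript scaled to 1000000, Zfp42 (882) and Nanog (767) were the most abundant factors in control cells and Prdm14 (22.6) the least, a span of 39.0-fold. Klf2 had 328, Esrrb 246 and Klf4 164. The remaining 4, Nr0b1, Klf5, Tbx3 and Tfcp2l1, lay between 80.3 and 97.7. In paused cells Zfp42 (849) stayed first, Nanog had 533 and Esrrb 462, and Prdm14 was again last at 32.3. This order depends on the transcript length used: with the median transcript length Klf4 was first in paused cells at 429, ahead of Esrrb at 351 and Zfp42 at 349. The core factors Pou5f1 and Sox2, which the naive factors act with, had small values in the authors' deposited tables: Pou5f1 fell by 0.18 (SE 0.06, adjusted p 0.00630) in control cells and had -0.08 (SE 0.04) in paused cells, and Sox2 had 0.06 (SE 0.09) and -0.06 (SE 0.05).

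Related genes were taken from lists of gene names, which were chosen with earlier results of these data known. For comparison, among genes with at least 5 ppm the share called in control cells was 50.0% (18.4% higher, 31.6% lower) and that for pausing was 51.6% (19.7% higher, 31.9% lower); the median change of these genes was -0.05 in each. Of 20 other genes associated with the naive state, 9 rose and 3 fell in each condition in the authors' deposited tables, with medians of 0.17 and 0.18. That is 45.0% called higher and 15.0% lower in each. Tet2, a DNA demethylase gene, rose by 0.59 (SE 0.07, adjusted p 1.24e-14) in control and 0.28 (SE 0.07, adjusted p 5.25e-04) in paused cells of the authors' deposited tables. Jam2, an adhesion molecule gene, rose by 0.57 (SE 0.06) and 0.36 (SE 0.07), and Morc1 by 0.33 (SE 0.07) and 0.63 (SE 0.05). Against these, Gbx2, a homeobox gene that LIF and STAT3 also induce, fell, with -0.55 (SE 0.13) and -1.09 (SE 0.21), as did Dppa3 (Stella), with -0.50 (SE 0.13) and -0.62 (SE 0.14), in control and in paused cells, per the authors' deposited tables. The difference between conditions was called for none of the 20, and 4 (20.0%) had an unadjusted p under 0.05, against 17.0% of genes with at least 5 ppm.

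The formative and primed states follow the naive state. Of 18 of their genes, 9 fell and 1 rose in control cells, and 9 fell and 5 rose in paused cells of the authors' deposited tables, with medians of -0.21 and -0.19. The shares were 50.0% lower in each condition, and 5.56% higher in control and 27.8% higher in paused cells. Of the 18 genes, 17 in control and 15 in paused cells had at least 5 ppm. Over all genes 21.9% and 22.0% were called lower, and 19.5% and 20.5% higher. Values below 0 were 14 of 18 in control and 12 of 18 in paused cells. Of genes with at least 5 ppm and a p-value they were 6511 of 10793 and 6598 of 11006. Of all genes with a p-value they were 9863 of 19778 and 10039 of 19979. Pou3f1, which codes for OCT6, fell, with -1.49 (SE 0.10, adjusted p 5.78e-50) and -1.92 (SE 0.24, adjusted p 1.51e-14), as did Sox11, a neural SOX gene, with -1.22 (SE 0.12) and -1.40 (SE 0.23), in control and in paused cells, per the authors' deposited tables. Tcf15, a marker of cells primed for differentiation, fell by 0.77 (SE 0.10) in paused cells and had -0.42 (SE 0.25) in control cells, in the authors' deposited tables. Fgf15 fell by 0.66 (SE 0.14) in control cells and had -0.31 (SE 0.19) in paused cells of these tables. Its mean was 332 normalized counts in control cells. In paused cells it was 64.4, under the 221 that correspond to 5 ppm there. For none of the 18 was the difference between conditions called. An unadjusted p under 0.05 was found for 3 (16.7%), against 17.0% of genes with at least 5 ppm and 12.9% of all genes.

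Among 14 other Klf genes, 5 rose and 3 fell in control cells and 5 rose and 2 fell in paused cells of the authors' deposited tables, with medians of 0.03 and 0.00. The shares called were 57.1% and 50.0%, against 50.0% and 51.6% of genes with at least 5 ppm, a level that 11 of the 14 reached. Over all genes the shares were 41.4% and 42.6%. Klf6 fell, with -0.63 (SE 0.11) and -0.64 (SE 0.16), as did Klf7, with -0.69 (SE 0.12) and -0.70 (SE 0.12), whereas Klf15 rose by 0.54 (SE 0.06) and 0.37 (SE 0.05), in control and in paused cells, per the authors' deposited tables. No difference between conditions was called for these 14. An unadjusted p under 0.05 was found for 2 (14.3%), against 17.0% of genes with at least 5 ppm and 12.9% of all genes.

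The LIF and Wnt inputs of the network had members called in either direction. Of 8 LIF pathway genes, 2 rose and 2 fell in control cells, and 2 rose and 3 fell in paused cells of the authors' deposited tables, with medians of -0.10 and -0.08. The shares called were 50.0% and 62.5%, against 50.0% and 51.6% of genes with at least 5 ppm. The STAT3 target and kinase gene Pim1 fell, with -0.53 (SE 0.06, adjusted p 8.42e-16) and -0.36 (SE 0.06, adjusted p 2.22e-08) in control and in paused cells, per the authors' deposited tables, the opposite direction to Klf4. The receptor gene Lifr rose by 0.20 (SE 0.06) and 0.23 (SE 0.07) per the authors' deposited tables. Of 8 Wnt pathway genes, 2 rose and 2 fell in control cells and 1 rose and 3 fell in paused cells, 50.0% called in each, with medians of -0.02 and -0.08. Tcf7l1, which codes for the repressor of Esrrb and Nanog, rose by 0.31 (SE 0.07) and 0.24 (SE 0.06), and the Wnt feedback gene Axin2 fell by 0.46 (SE 0.14) in control cells, with a paused value of -0.35 (SE 0.17), in the authors' deposited tables. Of 11 Nodal and Smad genes, 6 fell and 1 rose in control cells and 8 fell in paused cells, Smad2 included, which is the targeted gene, with medians of -0.19 and -0.21. Called lower were 54.5% and 72.7%, against 31.6% and 31.9% of genes with at least 5 ppm, and Smad2, Lefty1 and Lefty2 among them served to read the sign. Lefty2 fell, with -2.89 (SE 0.12) and -3.13 (SE 0.12), as did Lefty1, with -2.52 (SE 0.14) and -3.34 (SE 0.21), in the authors' deposited tables. The difference between conditions was called for 2 of these input genes, both named after their values were seen: Smad3 (-0.48, SE 0.11, adjusted p 0.00604), with 0.26 in control and -0.21 in paused cells, and Ctnnb1 (-0.15, SE 0.04, adjusted p 0.0311), with 0.10 and -0.05. That is 1 of 11 Nodal and Smad genes, 1 of 8 Wnt genes and 0 of 8 LIF genes, where 2.14% of genes with at least 5 ppm were called. An unadjusted p under 0.05 was found for 6 of 11 (54.5%), 2 of 8 and 0 of 8, against 17.0% of genes with at least 5 ppm.

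Of 14 co-regulators that work with the naive factors, 1 rose in control cells, and 3 rose and 3 fell in paused cells of the authors' deposited tables, with medians of 0.05 and 0.01. The shares called were 7.14% and 42.9%, against 50.0% and 51.6% of genes with at least 5 ppm. Ncoa3, a coactivator gene of Esrrb, rose by 0.39 in both (SE 0.05 and 0.03). Mbd3, which codes for a subunit of the NuRD repressor complex, fell by 0.19 (SE 0.05) and Cbfa2t2, whose product works with PRDM14, fell by 0.18 (SE 0.05) in paused cells of the authors' deposited table, where their control values were -0.09 (SE 0.08) and 0.05 (SE 0.05). Neither was shown to differ between conditions, at -0.10 (adjusted p 0.730) for Mbd3 and -0.23 (adjusted p 0.0722) for Cbfa2t2. The difference was called for 0 of the 14, and 2 (14.3%) had an unadjusted p under 0.05, against 17.0% of genes with at least 5 ppm.

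**Figure D5:**
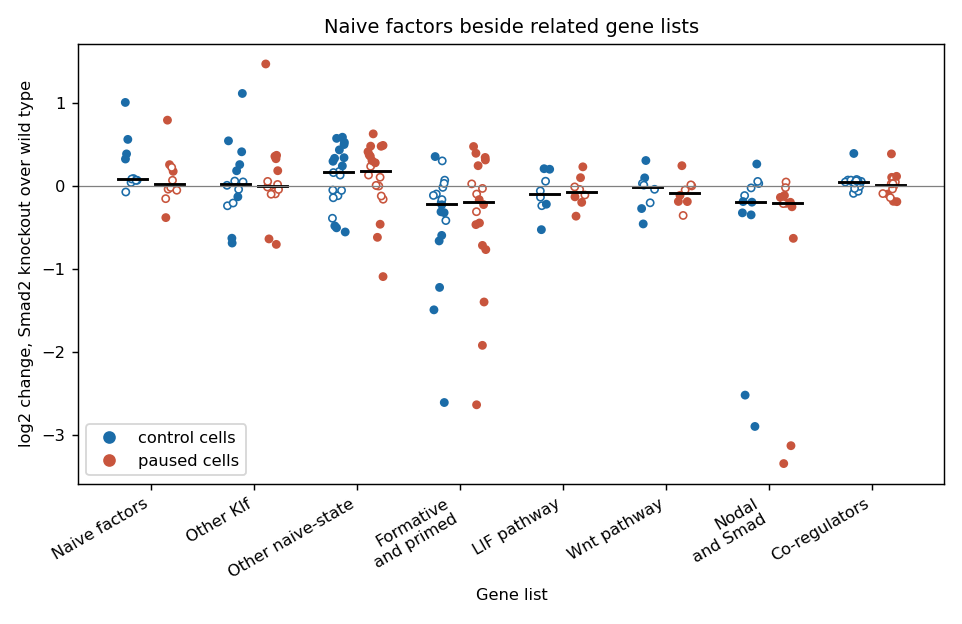
Log2 change of each gene, Smad2 knockout over wild type, for the naive factors and the related lists, in control (blue) and paused (red) cells; filled points have an adjusted p under 0.05 and black bars are list medians. Medians are 0.17 and 0.18 for other naive-state genes and -0.21 and -0.19 for formative and primed genes.

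Markers of other cell states moved with genotype as well. For comparison with the counts below, 19.5% of all genes were called higher and 21.9% lower in control cells. In paused cells these shares were 20.5% and 22.0%. All 6 primitive endoderm markers rose in both conditions. Their implied sum went from 13.5 to 26.2 ppm in control and from 27.3 to 46.9 in paused cells (wild type to knockout). Dab2, at means of 11.8 and 27.8 ppm, made up the larger part of the sum. The others were low, with means between 0.89 and 3.82 ppm. Of 6 markers of the 2-cell-like state, 6 rose in control and 5 in paused cells, from 927 to 1548 and from 365 to 570 ppm, though the Zscan4 genes among them are near-identical copies whose separate counts are uncertain. Mesendoderm markers summed to 30.1 in wild-type and 7.07 in knockout control cells, and to 25.9 and 8.52 in paused cells, with Mesp1 not listed in either table and T the highest. Of them 3 fell and 1 rose in control cells, and 2 fell in paused cells. The summed neuroectoderm markers went from 114 to 46.6 and from 126 to 29.6, a sum carried by Nes. In each condition 3 fell and 1 rose, per the authors' deposited tables. Nes (-1.74 and -2.48), Pax6 (-0.63 and -1.19) and Neurod1 (-0.48 and -0.95) fell in control and in paused cells. Sox1 rose (0.98 and 1.18). Olig2 was in neither table and Pax3 was not in that of control cells. Fibroblast or feeder markers went from 32.9 to 15.9 and from 30.3 to 18.8, with 2 lower and 1 higher in each condition. That fall was carried by Col1a1, with -2.79 and -3.53 in control and in paused cells, per the authors' deposited tables. Col1a2 fell too (-0.87 and -0.93), Col6a3 rose (1.54 and 1.34), and Thy1, Pdgfrb and Postn were not called. The summed trophoblast markers went from 226 to 158 and from 220 to 189, a sum carried by Krt8, which was not called (-0.78, SE 0.38, and -0.44, SE 0.40). Of the 6 trophoblast markers 3 rose in each condition, Gata3 (1.54 and 2.04), Hand1 (1.95 and 2.69) and Tfap2a (0.61 and 0.82), and Cdx2 fell, with -0.84 and -0.92, per the authors' deposited tables. The part of these cell states in the changes of the naive factors was not tested.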

How the data were processed

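Poly(A) RNA of 24 libraries was sequenced in 6 groups of 4, grouped by the titles. Per the submitters' processing notes the tools were FastQC, Trim Galore, HISAT2, featureCounts and DESeq2 with build mm10; versions, strand setting and the libraries used are not given in the sources used here. The authors deposited 2 tables whose columns, per the file headers, are those of DESeq2: a mean normalized count (a signal value the authors averaged), a log2 change with its standard error on the same log2 scale, a score (the change over its standard error), a p-value and an adjusted p-value. Library depth is unknown, and precision is known only from the standard errors (medians 0.11 in control and 0.10 in paused cells). Of the control genes 2 have no p.

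The authors' own tests are reported unchanged. The difference between conditions was the paused minus the control change over the combined standard error (square root of the sum of squares), two-sided normal p, Benjamini-Hochberg over 19134 genes. Intervals are 95% normal intervals. Implied levels assume 4 wild-type and 8 knockout libraries. Lengths are from GENCODE M21 (87.8% of control and 87.2% of paused genes matched by symbol) and promoters from RefSeq, GRCm38.p6. Python 3.11.15, numpy 2.4.6, scipy 1.17.1, pandas 2.3.3 and matplotlib 3.10.9 were used.

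The factors and lists were chosen with earlier results of these data known. Named genes are the 10 factors, Smad2, Pou5f1, Sox2 and, per list and table, at most the 3 largest called changes at 5 or more ppm. Outside this rule and with their values known, Smad3, Ctnnb1, Tbx3os1 and markers of cell states were named. Alternatives were an adjusted p under 0.01, a test against 1.2-fold, genes at 5 or more ppm only, a statistic scaled to its middle spread, and 2 other scalings. Protein sequences were not used here.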

Additional observations from a re-analysis of the deposited data

Results flagged for a closer look

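The change of Klf4 on Smad2 loss differed between paused and control cells by -0.30 on the log2 scale (SE 0.08, adjusted p 0.0264), by a test of the difference itself over all genes. Klf4 was higher by 0.56 in control and by 0.26 in paused cells of the authors' deposited tables. The call of the difference was lost at an adjusted p under 0.01, against a difference of at most 1.2-fold, and with the rescaled statistic.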

How the results depend on the processing

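No paired analysis was possible because the deposited tables hold no value per library, and leaving out replicates was not run for the same reason. Of 10 factors, 4 were called in control cells; 2 were against a null of up to 1.2-fold and 1 with a statistic rescaled to unit middle spread (all genes: 8189, 2090 and 293). In paused cells 4 became 1 and 1 (all genes: 8504, 2122 and 450). For the difference, 1 factor became 0 with each of these and at an adjusted p under 0.01, with 4 at an unadjusted p under 0.05, as were 12.9% of all genes (calls over all genes: 275, then 2 against 1.2-fold, 35 scaled and 102 at 0.01). With equal summed counts 35.9% of the differences called were more positive in paused cells, against 49.8%. Scaling reversed uncalled values only: in paused cells Klf2 to 0.01 when centred at the median and Klf5 to 0.03 when centred and 0.02 with equal summed counts, and for the difference Zfp42 to -0.01 and -0.02. Of 180 values of single factors under 6 alternatives, 158 kept direction and side of the threshold. The rise of Tbx3 was called in each. The scaled statistic rests on a middle spread of 2.76 in control cells, 2.80 in paused cells and 1.23 for the difference. Why these exceed that of a standard normal was not tested. Precision is limited by standard errors that pool both knockout lines as far as both were used.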
